A study of Homo sapiens with 39 samples.

Results

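The class 3 semaphorins are 7 secreted ligands (SEMA3A to SEMA3G), and the neuropilins NRP1 and NRP2 are the receptors that bind most of them. These 9 genes were chosen by their GeneName in the deposited tables, as a family whose TPM (a transcript's share of its library's RNA, corrected for transcript length and put on a common total) had been seen to vary across the groups. Their levels are therefore given as a description, with no p-value, and where a rule for calling all genes is applied to them, its outcome only says on which side of the rule a value lies. They make up 9 of 45435 rows. In total 15003 rows averaged 1 TPM or more across the libraries and could be tested, and 6 of the 9 genes were among them.

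All 39 libraries came from HCT116, a human colorectal cancer cell line, in its Flp-In T-REx form, in which a gene can be placed at a fixed genomic site and switched on with doxycycline. The parental group of 3 libraries had received no construct. Each of 12 further groups, of 3 libraries, was 1 line carrying 1 isoform of HNF4A fused to GFP, numbered 1 to 12. HNF4A (hepatocyte nuclear factor 4 alpha) is a nuclear receptor transcription factor of liver and gut epithelium. All groups, parental cells included, received 2.5 µg/ml doxycycline for 48 h. Before induction the parental cells were kept in 5 µg/ml blasticidin and 100 µg/ml zeocin, and the 12 lines in 5 µg/ml blasticidin and 100 µg/ml hygromycin B. No group produced GFP alone and each isoform was 1 line, so the isoform, GFP, the earlier antibiotic and the derivation of a line cannot be told apart. By the standard isoform nomenclature, which the labels do not give, isoforms 1 to 6 start at promoter P1 and 7 to 12 at P2. Isoforms 4 to 6 carry an additional N-terminal exon, isoforms 10 to 12 differ from 7 to 9 at the N-terminus, and isoforms 3, 6, 9 and 12 have a shortened C-terminus. A short C-terminal insertion is present in isoforms 2, 5, 8 and 11.

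Class 3 semaphorins are secreted, cut by furin-like proteases, and bind a neuropilin that is held in one complex with a plexin. The neuropilin binds the ligand and the plexin carries the signal into the cell, where it acts on small GTPases, integrins and the actin skeleton. SEMA3E is the exception, since it binds plexin D1 without a neuropilin. Neuropilins also bind VEGF family growth factors. The family is best known from axon guidance and vessel growth. SEMA3B and SEMA3F lie in a stretch of the short arm of chromosome 3 that is often lost in lung cancer.

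On GRCh38, SEMA3F lies at chr3:50155045-50189075 and SEMA3B at chr3:50267558-50277546, both on the plus strand, and SEMA3G at chr3:52433053-52445085 on the minus strand. SEMA3C (chr7:80742538-80922359), SEMA3E (chr7:83363238-83649113), SEMA3A (chr7:83955777-84492724) and SEMA3D (chr7:84995553-85186855) follow each other on the minus strand of chromosome 7. NRP2 lies at chr2:205681990-205798133 on the plus strand and NRP1 at chr10:33177492-33336262 on the minus strand. The 150 bases before the transcript start nearest to the annotated gene start are shown for the 4 ligands with the largest fold changes among those above the expression filter, so that the DNA in front of the higher and the lower ligands can be compared. They are RefSeq sequences of GRCh38.p14, written 5′ to 3′ on the gene's own strand, for chr3:50267502-50267651 (SEMA3B, plus), chr7:80922390-80922539 (SEMA3C, minus), chr3:50154908-50155057 (SEMA3F, plus) and chr3:52445104-52445253 (SEMA3G, minus). Capitals mark GGGCGG, the core of the GC box bound by SP1, or its reverse complement.
SEMA3B: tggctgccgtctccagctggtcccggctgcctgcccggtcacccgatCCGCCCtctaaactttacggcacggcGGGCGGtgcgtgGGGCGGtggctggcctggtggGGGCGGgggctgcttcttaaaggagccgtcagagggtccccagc
SEMA3C: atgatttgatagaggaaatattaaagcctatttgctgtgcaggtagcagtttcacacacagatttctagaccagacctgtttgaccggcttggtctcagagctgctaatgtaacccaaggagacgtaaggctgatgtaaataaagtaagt
SEMA3F: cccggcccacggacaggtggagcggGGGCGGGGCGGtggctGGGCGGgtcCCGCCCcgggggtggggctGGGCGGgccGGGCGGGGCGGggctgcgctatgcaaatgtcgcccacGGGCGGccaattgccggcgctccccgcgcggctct
SEMA3G: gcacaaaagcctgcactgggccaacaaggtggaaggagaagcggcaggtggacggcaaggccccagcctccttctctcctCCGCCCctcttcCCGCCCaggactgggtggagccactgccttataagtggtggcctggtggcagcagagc
The stretch before SEMA3F held 8 GC-box matches, those before SEMA3B 4 and before SEMA3G 2, and the one before SEMA3C held 0. G and C made up 82.0% of the bases before SEMA3F, 71.3% before SEMA3B, 64.7% before SEMA3G and 41.3% before SEMA3C. A second SEMA3C start, with 150 bases at chr7:80919052-80919201, had 77.3% G and C and 1 match. The other SEMA3B starts had 0 or 1 match each, with 66.7% to 78.0% G and C. At the other SEMA3F starts there were 2 and 0 matches, with 83.3% and 52.7% G and C. These counts thus depend on the start that is chosen. The motif CAAAGNNCA, the core letters of HNF4 sites, was searched on both strands in windows of 300 bases (250 before to 50 after each start). It was present in 1855 of all 35116 windows (5.28%) and in 0 of 15 windows of 7 members, some of which overlap. GGGCGG was present in 45% of all windows and in 8 of the 15, and TATAAA in 11.5% of all windows and in 1 of the 15. A match is not a site, and no match says only that these letters are not in this window. NRP1 and SEMA3A were not matched in the promoter table.

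In the parental cells HNF4A itself measured 31.5 TPM ± 0.589 (SD, n = 3), and the line means lay between 614 and 1071 TPM. Every library of every line was above every parental library. Replicate 1 of isoform 3 stood apart from the other 2 of its group, with 407 TPM of HNF4A against 833 and 772. The members' fold changes in isoform 3, and the differences printed between isoform 3 and other lines, are therefore given with and without it. The libraries had between 27884 and 30550 rows above 0 TPM. All 8 epithelial markers had a mean of at least 1 TPM. Of the endothelial, fibroblast and neuronal markers 1 of 6 (PECAM1), 1 of 6 (COL1A1) and 1 of 5 (SYT1) did, and none of the listed genes was at 0 in every library. Summed TPM was 3.02 in parental cells and 2.20 to 6.40 in the lines for the endothelial list, 14.5 and 9.92 to 14.1 for the fibroblast list, and 6.62 and 1.76 to 5.89 for the neuronal list. The immune list was at 5.37 TPM in the parental cells and at 6.90 to 34.3 in the lines. CD68, which ranged from 3.10 to 34.7 TPM over the libraries, carried most of that sum, while PTPRC and CD3E did not exceed 0.296 and 0.0548 TPM. The part of these genes in the results below was not tested.

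Changes were measured with limma on log2(TPM + 1) in 1 fit of all 39 libraries. A call needed a Benjamini-Hochberg adjusted p under 0.05 together with a log2 fold change of 1 or more in size. Fold changes on this scale understate the change of low genes. All 12 comparisons use the same 3 parental libraries and are not independent of each other. No label says that libraries of a group came from separate cultures, so the tests measure the spread between these libraries. TPM gives no depth per library. In the authors' deposited table the mean normalised count, over the 12 comparisons, was 560 to 3546 for SEMA3B and 16.4 to 37.9 for SEMA3A, so the low members rest on few reads. The 9 genes gave 23 calls over the 12 lines, 20 higher and 3 lower. The choice of the family used these same contrasts, so these counts describe the members and are no test of them.

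The share of all tested genes called higher is given beside the members' counts. In isoforms 1, 2 and 3 SEMA3B and SEMA3C were called higher, where 2.74%, 2.36% and 0.653% of all genes were. In isoforms 4 and 5 SEMA3B alone of the members was called higher, where 0.227% and 0.153% of genes were, and in isoform 6 no member was, where 0.0933% were. Both SEMA3B and SEMA3C were called higher in isoforms 7 to 12. The share of all genes called higher there was, in the order of the isoform numbers, 1.12%, 0.940%, 0.387%, 1.13%, 1.05% and 0.440%. Members called lower were NRP1 in isoform 5 (0.140% of all genes lower), NRP1 in isoform 6 (0.153%) and SEMA3F in isoform 7 (0.960%). No member was called lower in isoforms 1, 2, 3 and 4, with 1.78%, 1.37%, 0.153% and 0.313% of all genes, nor in isoforms 8, 9, 10, 11 and 12, with 0.473%, 0.440%, 0.313%, 0.653% and 0.133%. The share of all genes whose 3 libraries lay wholly above or wholly below the 3 parental ones was far larger. It was 65.0%, 64.6% and 39.5% in isoforms 1 to 3, 35.2%, 38.0% and 32.6% in isoforms 4 to 6, 48.9%, 48.5% and 32.5% in isoforms 7 to 9, and 52.1%, 50.8% and 33.2% in isoforms 10 to 12. Non-overlap of libraries was thus common in these data and is used below only to describe where values lie.

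SEMA3B, a secreted ligand described as a tumour suppressor in lung cancer, was the member with the widest range. It measured 4.57, 4.65 and 4.85 TPM in the parental libraries. In isoform 2 it measured 73.3, 66.3 and 70.5 TPM, and in isoform 1 it measured 70.1, 63.6 and 60.7 TPM. The mean was 14.9 times the parental mean in isoform 2 (log2 fold change 3.64, SE 0.16) and 13.8 times in isoform 1 (3.53, SE 0.16). Isoform 10 followed with 38.8, 37.6 and 40.8 TPM, and isoform 3 gave 20.7, 41.2 and 41.6 TPM. The libraries of isoforms 1 and 2 overlapped with each other and lay above those of every other line. In isoform 3 the low value was that of replicate 1, and the log2 fold change was 2.58 with it and 2.90 without it.

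In isoform 11 SEMA3B measured 35.0, 32.5 and 32.8 TPM, and in isoform 7 it measured 33.0, 29.7 and 37.5 TPM. Isoform 8 gave 26.1, 31.4 and 25.6 TPM, isoform 12 gave 25.2, 23.7 and 20.7 TPM, and isoform 9 gave 23.8, 18.6 and 19.6 TPM. The lowest levels among the lines were those of isoforms 4 to 6. Isoform 4 gave 14.8, 11.9 and 9.93 TPM, isoform 5 gave 12.1, 11.6 and 11.0 TPM, and isoform 6 gave 9.85, 8.40 and 8.01 TPM. Every library of the 12 lines was above the highest parental library. In bulk RNA, more cells expressing a gene and more RNA per cell cannot be told apart. In the order of the 13 groups, neighbours whose libraries did not overlap were isoforms 1 and 10, 8 and 12, 9 and 4, 5 and 6, and isoform 6 and the parental cells. The call threshold fell between isoform 5 (log2 fold change 1.14) and isoform 6 (0.77).

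Lines that differ by the shortened C-terminus could be set side by side within each N-terminal form. SEMA3B was lower by 0.95 (log2 scale, SE 0.16) in isoform 3 than in isoform 1, by 0.43 in isoform 6 than in isoform 4, by 0.67 in isoform 9 than in isoform 7 and by 0.73 in isoform 12 than in isoform 10, with the same SE. Without replicate 1 of isoform 3 its difference from isoform 1 was -0.63 (SE 0.12). In all 4 pairs the libraries did not overlap, but the highest of isoform 6 (9.85 TPM) was close to the lowest of isoform 4 (9.93 TPM). The share of all genes whose libraries did not overlap between 2 lines is not given here. The non-overlap therefore only describes where the values lie. The insertion gave no common direction, with differences of 0.11 between isoforms 2 and 1, -0.06 between 5 and 4, -0.26 between 8 and 7 and -0.22 between 11 and 10. The widest gaps were those of the additional N-terminal exon, at -2.33 between isoforms 4 and 1, -2.50 between 5 and 2 and -1.80 between 6 and 3 (-2.12 without replicate 1 of isoform 3). Each form here is 1 line, so a form and its line cannot be told apart.

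**Figure D1:**
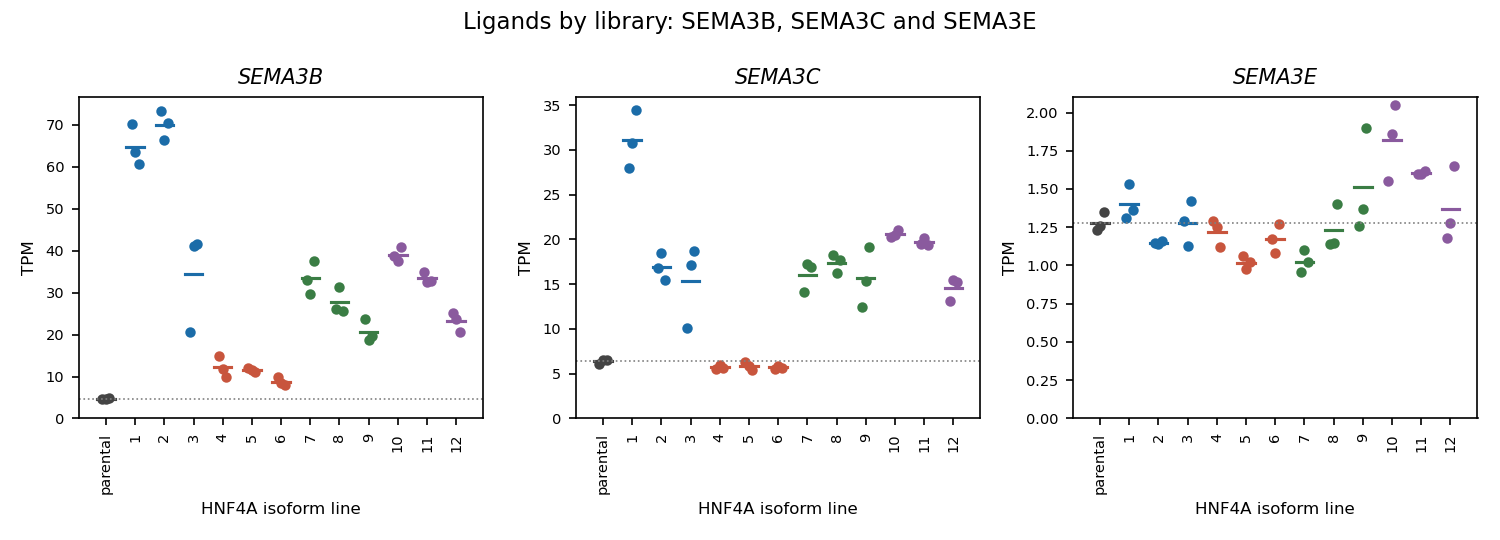
TPM of SEMA3B, SEMA3C and SEMA3E in each library (points), with the group mean (bar) and the parental mean (dotted line), on linear axes from 0. Colours group the lines as 1 to 3, 4 to 6, 7 to 9 and 10 to 12. SEMA3B was above the parental libraries in all 12 lines, SEMA3C in 9, and SEMA3E stayed between 1.02 and 1.82 TPM as line means.

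SEMA3C, a ligand that acts through both neuropilins and is known from heart outflow tract development, was higher in 9 lines and at or just under the parental level in isoforms 4 to 6. The parental libraries measured 6.08, 6.57 and 6.55 TPM. Isoform 1 gave 28.0, 30.8 and 34.5 TPM, which is 4.86 times the parental mean (log2 fold change 2.11, SE 0.13). Isoform 10 gave 20.3, 20.5 and 21.1 TPM and isoform 11 gave 19.5, 20.1 and 19.4 TPM. These 3 lines did not overlap with each other or with any line below them.

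In isoforms 2, 7, 8, 9 and 12 SEMA3C ranged from 12.5 to 19.1 TPM over the libraries, with log2 fold changes of 1.27, 1.20, 1.31, 1.15 and 1.07. In isoform 3 it measured 10.1, 17.1 and 18.7 TPM. Its log2 fold change there was 1.10, or 1.35 without replicate 1, and it missed the call rule at 0.94 without replicate 3. Isoform 4 gave 5.50, 5.99 and 5.59 TPM, isoform 5 gave 6.28, 5.82 and 5.36 TPM, and isoform 6 gave 5.49, 5.91 and 5.69 TPM. Isoforms 4 and 6 lay wholly below the parental libraries and isoform 5 overlapped with them, at log2 fold changes of -0.14, -0.14 and -0.12. In isoforms 4 to 6, then, SEMA3B was above the parental libraries throughout and SEMA3C in none of the lines. Among the pairs that differ by the insertion, SEMA3C was lower by 0.84 (SE 0.13) in isoform 2 than in isoform 1, and the other 3 pairs differed by 0.03 (5 against 4), 0.11 (8 against 7) and -0.07 (11 against 10). Within the shortened C-terminus pairs it differed by -1.02 (3 against 1), 0 (6 against 4), -0.05 (9 against 7) and -0.48 (12 against 10). Without replicate 1 of isoform 3 its difference from isoform 1 was -0.76 (SE 0.11).

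SEMA3E, the ligand of plexin D1, was low and nearly level. It measured 1.23, 1.26 and 1.35 TPM in the parental cells. The highest line was isoform 10 with 1.55, 1.86 and 2.05 TPM, which is 1.42 times the parental mean (log2 fold change 0.30, SE 0.08). The lowest was isoform 5 with 1.06, 0.974 and 1.02 TPM (-0.18). At this level the 1 TPM added before taking logs makes the fold changes smaller. In isoform 3 the log2 fold change was -0.00, and -0.01 without replicate 1. Only isoforms 10 and 11 lay wholly above and isoforms 2, 5 and 7 wholly below the parental libraries. It was the member nearest above the expression filter, with a mean of 1.31 TPM over the 39 libraries. NRP2, at 0.295 TPM, was the nearest below it.

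SEMA3F, a repulsive ligand that prefers NRP2, was the most abundant class 3 semaphorin in the parental cells. Its parental libraries measured 14.4, 13.5 and 13.9 TPM. Isoform 7 gave 6.69, 6.37 and 5.95 TPM, which is 0.455 of the parental mean (log2 fold change -1.02, SE 0.08). Isoform 11 gave 7.30, 6.91 and 6.10 TPM (-0.94), just short of the call rule. The call in isoform 7 was lost without replicate 3 of that line (-0.99) and after median-of-ratios scaling (-0.93), and with a pseudocount of 0.1 both isoform 7 (-1.12) and isoform 11 (-1.03) were past the rule.

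Isoform 8 gave 7.03, 8.10 and 7.69 TPM of SEMA3F, and isoform 1 gave 8.40, 7.43 and 7.00 TPM, both at a log2 fold change of -0.80. Isoforms 9, 2, 10, 3 and 12 followed at mean levels of 8.46, 9.10, 10.0, 10.9 and 12.3 TPM. All 9 of these lines lay below the parental libraries. The log2 fold change of SEMA3F in isoform 3 was -0.34, and -0.41 without replicate 1. Isoform 5 lay above them, at 19.4, 18.5 and 18.9 TPM (0.42). Isoforms 4 and 6 overlapped with the parental libraries, at 13.7 TPM ± 1.71 and 14.3 TPM ± 0.853 (SD, n = 3). Within the shortened C-terminus pairs SEMA3F was higher in isoform 3 than in 1 by 0.46 (0.39 without replicate 1 of isoform 3), in 9 than in 7 by 0.37 and in 12 than in 10 by 0.28 (SE 0.08 each), and 6 against 4 differed by 0.06.

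SEMA3G, a ligand described in blood vessel endothelium, measured 4.74, 4.54 and 5.05 TPM in the parental cells. The lowest line was isoform 2 at 2.71, 2.34 and 2.32 TPM (log2 fold change -0.74, SE 0.07), followed by isoform 1 at 2.86, 2.87 and 2.72 TPM (-0.60). It passed the call rule in no line. The libraries lay below the parental ones in the same 9 lines as for SEMA3F, and those of isoforms 4, 5 and 6 overlapped with them at means of 4.76, 4.75 and 4.43 TPM. Isoform 2 did not overlap with any other group. In isoform 3 the log2 fold change was -0.20 with and without replicate 1.

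**Figure D2:**
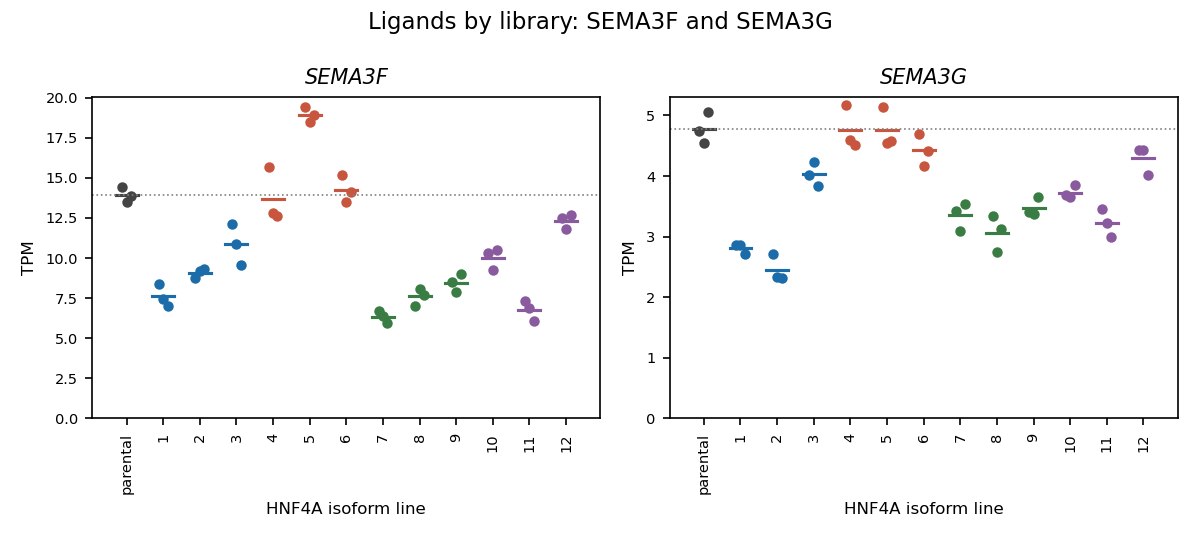
TPM of SEMA3F and SEMA3G in each library (points), with the group mean (bar) and the parental mean (dotted line), on linear axes from 0 and with the same colours by group of lines as for SEMA3B. Both ligands were below the parental libraries in the same 9 lines, and SEMA3F was above them in isoform 5 at 18.9 TPM.

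SEMA3A, the founding axon-repelling ligand of the class, and SEMA3D were below the filter and are given as TPM alone. SEMA3A measured 0.169, 0.185 and 0.327 TPM in the parental cells. It ranged from 0.0280 TPM as the mean of isoform 7 to 0.310 TPM as that of isoform 4. Libraries lay below the parental ones in 8 lines and overlapped in the other 4. SEMA3D measured 0.279, 0.224 and 0.231 TPM in the parental cells and 0.0499, 0.0602 and 0.0950 TPM in isoform 7, the lowest line. Its highest line was isoform 5, at 0.413, 0.390 and 0.573 TPM.

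In sum over the 7 ligands, the parental cells held 31.5 TPM ± 0.655 (SD, n = 3), of which SEMA3F made up 44.1%, SEMA3C 20.3%, SEMA3G 15.1% and SEMA3B 14.9%. In isoform 1 the sum was 108 TPM ± 2.52, with SEMA3B at 59.9%, SEMA3C at 28.8% and SEMA3F at 7.03%. In isoform 2 it was 100.0 TPM ± 2.73 and SEMA3B was 70.0% of it. SEMA3B was thus the leading ligand by TPM in those lines and SEMA3F in the parental cells. In isoforms 4 and 6 the sums were 38.2 TPM ± 4.62 and 34.9 TPM ± 1.79, and SEMA3F led at 35.9% and 41.0%. Isoform 5 had 42.7 TPM ± 1.67 with SEMA3F at 44.3%. The sums of isoforms 3 and 7 to 12 lay between that of isoform 9, the lowest, and 75.8 TPM in isoform 10, with SEMA3B at 41.2% to 55.3%. The ratio of SEMA3B to SEMA3F was 0.317 to 0.350 in the parental libraries, 8.34 to 8.67 in isoform 1 and 0.567 to 0.647 in isoform 6. In isoform 3 it was 1.72 to 4.34 over the 3 libraries. The sum there was 66.5 TPM ± 15.4 with SEMA3B at 50.8%, and 75.3 TPM with SEMA3B at 54.9% without replicate 1.

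**Figure D3:**
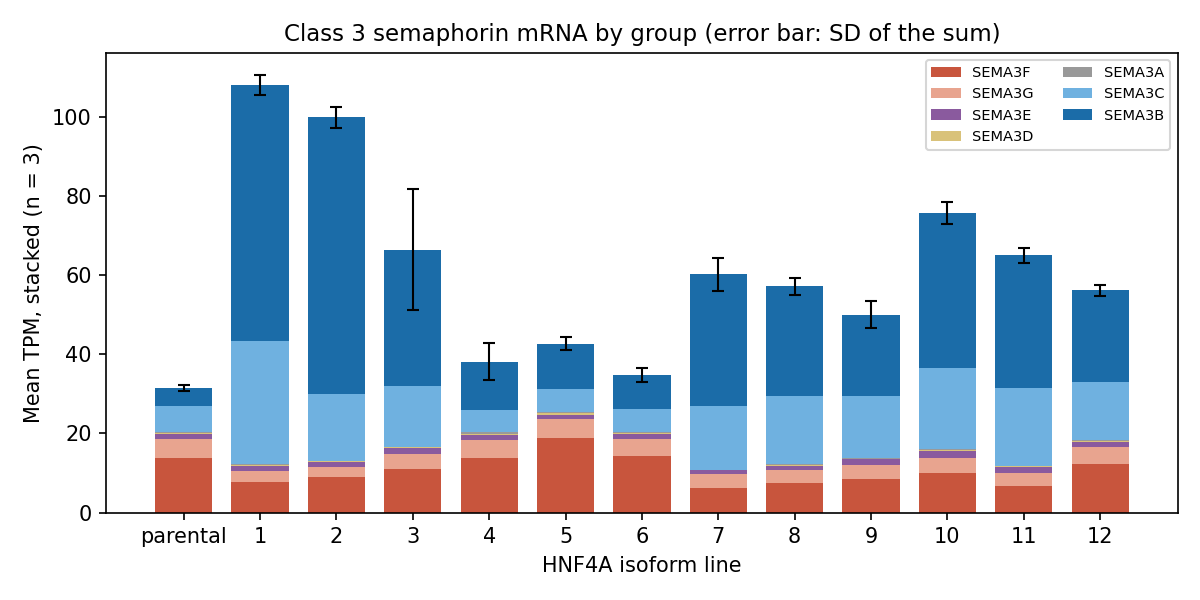
Mean TPM of the 7 class 3 semaphorins, stacked, in the parental cells and the 12 lines (n = 3 libraries each), with the SD of the sum as the error bar. SEMA3F led in the parental cells, at 44.1% of 31.5 TPM, and SEMA3B led in isoform 1, at 59.9% of 108 TPM.

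NRP1, the receptor for SEMA3A and a co-receptor for VEGFA, was the only neuropilin above the filter, and differed among the lines in both directions. The parental libraries measured 6.45, 7.72 and 6.39 TPM. Isoform 11 gave 13.9, 14.1 and 11.9 TPM and isoform 7 gave 12.3, 14.8 and 11.4 TPM, with log2 fold changes of 0.87 and 0.81 (SE 0.11). Isoform 1 gave 10.0, 9.93 and 8.11 TPM (0.40). These 3 lines lay above the parental libraries, and isoforms 7 and 11 overlapped with each other but not with isoform 1.

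The lowest NRP1 levels were those of isoforms 4 to 6. Isoform 5 gave 2.15, 2.60 and 2.06 TPM, which is 0.331 of the parental mean (log2 fold change -1.26). Isoform 6 gave 2.22, 2.66 and 2.20 TPM (-1.22). Isoform 4 gave 3.05, 3.12 and 2.77 TPM (-0.98), just outside the call rule and past it without replicate 1 (-1.01) or replicate 3 (-1.02) of the parental cells, or without 1 of its own libraries. The other 6 lines, from 5.80 to 7.31 TPM as means, overlapped with the parental libraries. In isoform 3 the log2 fold change was -0.21, and -0.29 without replicate 1. Among the pairs that differ by the insertion, NRP1 was lower by 0.46 in isoform 2 than in 1, by 0.29 in isoform 5 than in 4 and by 0.79 in isoform 8 than in 7, and it was 0.78 higher in isoform 11 than in 10 (SE 0.11 each). Within the shortened C-terminus pairs NRP1 differed by -0.61 (3 against 1), -0.25 (6 against 4), -0.79 (9 against 7) and -0.29 (12 against 10), with the same SE. Without replicate 1 of isoform 3 its difference from isoform 1 was -0.68 (SE 0.13).

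NRP2, the preferred receptor of SEMA3F, was below 1 TPM in every library and is given as TPM. The parental libraries measured 0.380, 0.481 and 0.422 TPM. Isoform 2 gave 0.0790, 0.162 and 0.0555 TPM, isoform 7 gave 0.0842, 0.167 and 0.133 TPM and isoform 1 gave 0.133, 0.211 and 0.0556 TPM. Libraries lay below the parental ones in isoforms 1, 2, 7, 8, 9 and 11 and overlapped in the other 6 lines. In the authors' deposited table the log2 fold change of NRP2 was -1.44 in isoform 2, -1.23 in isoform 1 and -1.02 in isoform 7. Mean TPM there was 0.231, 0.311 and 0.299 of the parental mean, a larger fall than those values give. The 2 measures thus differ in size. That table's mean normalised count of NRP2 was 39.4 to 82.3. The NRP1 to NRP2 ratio had a median of 16.0 in the parental libraries, 88.6 in isoform 7 and 5.73 in isoform 5.

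**Figure D4:**
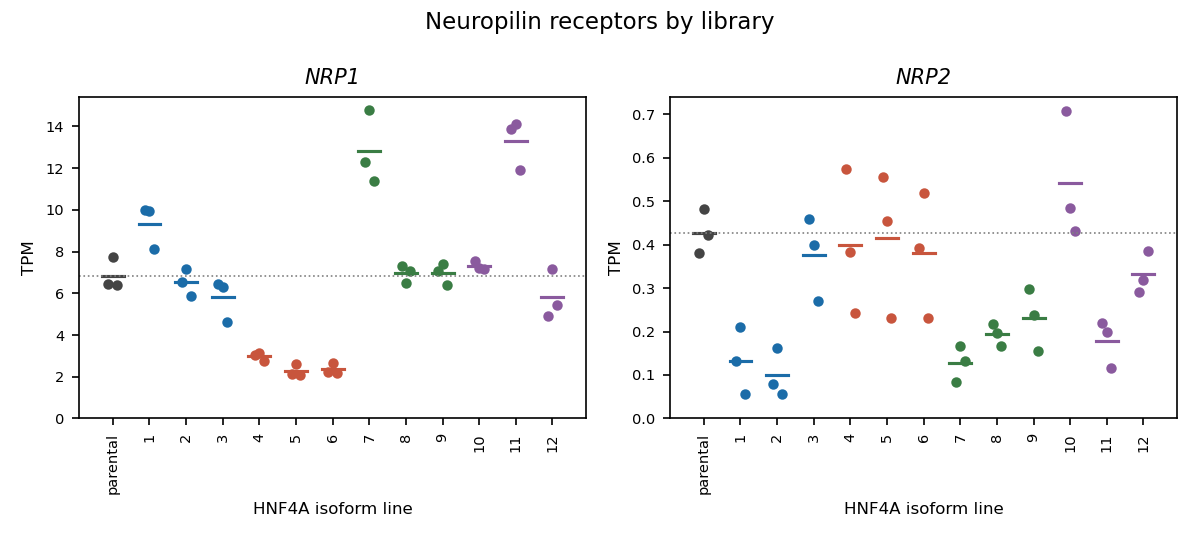
TPM of NRP1 and NRP2 in each library (points), with the group mean (bar) and the parental mean (dotted line), on linear axes from 0 that differ in scale. NRP1 was highest in isoforms 11 and 7 and lowest in isoforms 4 to 6, and NRP2 did not exceed 0.708 TPM.

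Over the 13 group means on the log2(TPM + 1) scale, SEMA3B and SEMA3C varied together (Pearson r 0.89), as did SEMA3F and SEMA3G (0.82). SEMA3F varied against NRP1 (-0.88) and SEMA3C (-0.83), and SEMA3B against SEMA3G (-0.86). Over the 12 lines, SEMA3B and HNF4A had r -0.74, SEMA3C and HNF4A -0.61 and NRP1 and HNF4A -0.60, so the lines with most HNF4A mRNA (isoform 6, 1071 TPM) were not those with most of these members. Isoforms 4 to 6, which share the additional N-terminal exon, had 852 to 1071 TPM of HNF4A. They also had the lowest line means of SEMA3B, SEMA3C and NRP1, and no coefficient given here leaves them out. The points come from the same libraries, in which TPM sums to a fixed total, and each coefficient is a description over 13 or 12 groups. Without replicate 1 of isoform 3, r was -0.70 for SEMA3B and HNF4A and -0.64 for NRP1 and HNF4A, and the other coefficients given here moved by 0.02 or less. The part of the HNF4A level in the differences between lines was not tested.

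The genes most like SEMA3B over the 13 groups were CPPED1, DEPDC7, CRYBG2, TRIM15 and ARHGAP27, each with r 0.98. For SEMA3C they were TNFRSF10A, CBLB and IRAK2 (r 0.97) and SUPV3L1 and AKAP12 (0.96). For SEMA3F they were LOC107986035, SLC6A16, ARHGEF10L, FAM171A2 and ERV3-1 (0.98 each). For SEMA3G they were SPEG (0.97) and IGSF9, PTPRS, OTX1 and GPRC5B (0.96 each), and for NRP1 they were RPP40 (0.93), SLC26A6, SMURF2 and PDCD2L (0.92) and ZNF296 (0.91). SEMA3E had no gene above r 0.85 (WDR44). An r does not measure the size of a change, and some of these genes varied little. On the log2(TPM + 1) scale the group means of TNFRSF10A ranged from 5.03 to 5.55 and those of PDCD2L from 5.71 to 6.01. Those of TRIM15 ranged from 2.07 to 5.84. How many genes reach such an r is not given here.

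SEMA3B was set beside the genes of its stretch of chromosome 3, between RBM6 and CACNA2D2. Of 20 genes there besides SEMA3B and SEMA3F, 17 were tested and 13 were called in no line. The share of all tested genes called in no line is not given here. The count therefore does not say whether this stretch is unusual. Genes called in no line were not all level. HYAL3 had log2 fold changes from -0.05 to 0.95, NAT6 from 0.11 to 0.83 and ZMYND10 from -0.62 to 0.20. These genes were named after their values were seen. SEMA3B-AS1, an RNA read from the other strand just ahead of SEMA3B (chr3:50266641-50267371), was the only neighbour called in at least 3 lines. It measured 0.978, 1.46 and 0.830 TPM in the parental cells, 7.96, 6.16 and 5.49 TPM in isoform 1 and 5.02, 7.50 and 4.87 TPM in isoform 2. It was called higher in isoforms 1, 2, 8 and 11, with log2 fold changes of 1.85, 1.69, 1.17 and 1.48. At the coordinates given here SEMA3B-AS1 and SEMA3B do not overlap. A further RefSeq start of SEMA3B, with its 150 bases at chr3:50260076-50260225, lies ahead of both. The libraries kept strand, but whether the counting used it is not stated. Reads of SEMA3B-AS1 and of a SEMA3B transcript from that start may therefore not be fully told apart. The other 3 neighbours with a call, named after their values were seen, were HYAL1 (higher in 2 lines, at most 1.24), SLC38A3 (higher in 1, 1.10) and CACNA2D2 (lower in 1, -1.01). SEMA3F, which lies on the same strand as SEMA3B with GNAT1, SLC38A3 and GNAI2 between them, had log2 fold changes from -1.02 to 0.42, while GNAI2 stayed between 0.03 and 0.33.

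The other genes of the pathway were taken from a list of 58 genes, of which 42 were tested. Over the 12 lines this list gave 9 calls higher and 4 lower. After median-of-ratios scaling there were 15 higher and 3 lower. That scaling moved the median log2 fold change of all genes from -0.107 to 0.015 in isoform 1, from -0.063 to 0.026 in isoform 7 and from -0.059 to 0.022 in isoform 11, the 3 lines in which calls were gained or lost. In isoform 1, 3 of the 42 were called higher and 1 lower (9.52%, with 4.52% of all tested genes called in either direction). In isoform 2 these were 2 and 1 (7.14%, against 3.73%), in isoform 7 they were 1 and 2 (7.14%, against 2.08%). Isoforms 8, 10 and 11 had 1 higher call each (2.38%, against 1.41%, 1.44% and 1.70%), and the list had no call in isoforms 3, 4, 5, 6, 9 and 12. The median log2 fold change of the list lay between -0.17 in isoform 1 (-0.11 over all genes) and 0.08 in isoform 5 (0.01 over all genes). It was below that of all genes in 8 lines and above it in isoforms 2, 4, 5 and 10.

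Of 9 plexins, the receptors that carry the semaphorin signal, 6 were tested and none was called. The most abundant was PLXNB2, at 83.3 TPM in the parental cells, with log2 fold changes of -0.34 to -0.02. PLXNA1 (17.1 TPM, -0.44 to -0.02), PLXNA3 (15.2 TPM, -0.21 to -0.02) and PLXNB1 (17.1 TPM, -0.09 to 0.68) were named after their values were seen. PLXND1, the receptor of SEMA3E, was at 14.3 TPM in the parental cells and between -0.29 and -0.04 in the lines. Of the adhesion co-receptors only L1CAM was tested, at 3.70 TPM, with -0.67 in isoform 7 and 0.39 in isoform 5. None of 4 proprotein convertases was called. PCSK7 was at 18.5 TPM with -0.20 to 0.19, and FURIN, named after its values were seen, was at 14.5 TPM with -0.02 to 0.68.

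VEGFA, the vessel growth factor that also binds NRP1, was the most abundant of the growth factors and receptors. It rose from 27.6 TPM ± 1.04 in the parental cells to 105 TPM ± 6.32 in isoform 1 (log2 fold change 1.90, SE 0.09, limma adjusted p = 1.31e-16) and to 85.3 TPM ± 5.56 in isoform 2 (1.59, SE 0.09, limma adjusted p = 9.93e-15; SD, n = 3). In isoform 3 its log2 fold change was 0.93, and 1.07 without replicate 1 of that line, which passes the rule. It was at 26.9 and 26.4 TPM in isoforms 5 and 6. After median-of-ratios scaling it was also called higher in isoform 7. With no minimum fold change it was called higher in 10 lines, all but isoforms 5 and 6. The share of all genes called under that setting is not given here.

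Among semaphorins of other classes, SEMA7A, a membrane-anchored ligand of integrins and plexin C1, was the gene called in most lines. Its parental mean was 3.69 TPM ± 0.379 (SD, n = 3). It rose to 18.6 TPM ± 1.89 in isoform 7 (log2 fold change 2.06, SE 0.14, limma adjusted p = 5.38e-13), 15.6 TPM ± 2.15 in isoform 11 (1.82, adjusted p = 1.30e-11), 10.9 TPM in isoform 8 (1.35) and 9.02 TPM in isoform 10 (1.09). The call in isoform 10 was lost without replicate 1 of that line (0.99). SEMA7A was highest in isoforms 7 and 11, as was NRP1. SEMA4C, the most abundant other semaphorin, was at 23.3 TPM and between -0.69 (isoform 1) and 0.09 (isoform 5), below the rule. SEMA6B (13.7 TPM in the parental cells and 6.33 TPM in isoform 7, where it was called lower, a call lost at -0.99 without replicate 3 of that line or replicate 2 of the parental cells, and lost after median-of-ratios scaling) and SEMA6C (higher in isoform 1, 1.22) were named after their values were seen.

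Of 21 intracellular effectors, 19 were tested. FYN, a Src-family kinase that acts downstream of plexins in axon guidance, fell from 22.8 TPM ± 0.134 to 8.24 TPM ± 0.935 in isoform 1 (SD, n = 3; log2 fold change -1.37, SE 0.09, limma adjusted p = 1.90e-13). It also fell to 9.41 TPM in isoform 2 (-1.19) and to 9.87 TPM in isoform 7 (-1.13). In isoforms 4 to 6 its fold changes were 0.07, 0.13 and -0.05. MICAL1, an actin-oxidising enzyme that binds plexins and was named after its values were seen, rose from 12.2 TPM to 28.2 TPM in isoform 1 (1.15) and 25.4 TPM in isoform 2. The call in isoform 2 was lost without replicate 1 or 3 of isoform 2 or replicate 1 or 2 of the parental cells, with fold changes down to 0.97. CFL1 (cofilin, which cuts actin filaments) was the most abundant, at 1052 TPM, with -0.20 to 0.05.

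**Figure D5:**
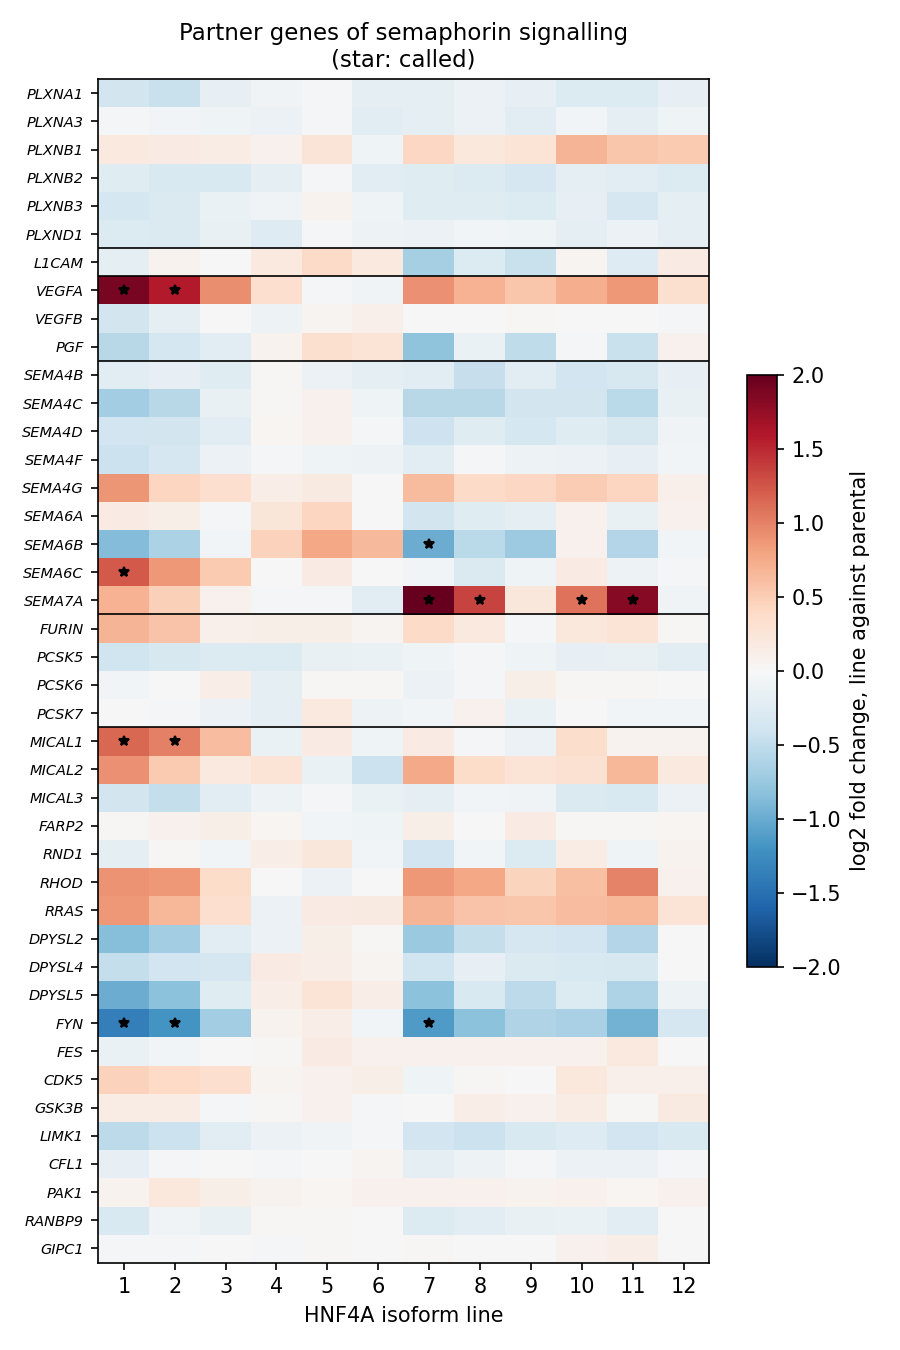
Log2 fold change against the parental cells (colour, from -2 to 2, values past the ends take the end colour) of the 42 tested pathway genes (rows) in the 12 isoform lines (columns), with a star for a call. Black lines part plexins, adhesion co-receptors, growth factors, other semaphorins, convertases and effectors. Stars stand mainly in isoforms 1, 2 and 7 and in the row of SEMA7A.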

How the data were processed

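RNA-seq of 39 libraries (13 groups of 3) was used. The authors deposited 1 table per group with TPM per library, per the file headers. Per the file headers, the 12 line tables add the columns of a DESeq2 results table for line against parental cells. The mean normalised count is a signal the authors computed over the libraries compared, and it summed to 50609338 to 56136330, the only measure of depth. The authors' log2 fold change comes with its error, and their test statistic is a score. The deposited p-values were computed by the authors, raw and adjusted. The submitters' processing notes name Trimmomatic 0.36, FastQC 0.11.5, kallisto 0.44.0, DESeq2 1.22.2 and GRCh38.p12, with no roles. The authors' columns entered no fit.

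The 12 HNF4A rows were summed, which left 45435 of 45446 rows. Names differed in 29 rows of the isoform 4 and 5 tables, and the parental names were used. The libraries of isoforms 4 and 5 carry a group but no replicate number. Rows with a mean of at least 1 TPM (15003) were fitted on log2(TPM + 1) with limma 3.58.1 (lmFit, eBayes with trend) in R 4.3.3, with 1 coefficient for each of 13 groups, which left 26 residual degrees of freedom. The script was tested on simulated data. TPM keeps no depth, so no counting interval was computed.

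The members, the lists and the tests were chosen with earlier results of these data known. Named were the 9 members, HNF4A, pathway genes called in at least 3 lines, the gene with the highest mean TPM in each sub-list, neighbours of SEMA3B called in at least 3 lines, and the 5 genes with the highest Pearson r to each expressed member. The motifs GGGCGG and TATAAA were added after the first search. Alternatives were the pseudocount, the filter, scaling, the samples in the fit, the replicate block, the fold minimum and leaving out libraries.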

Additional observations from a re-analysis of the deposited data

How the results depend on the processing

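The 23 calls among members became 45 with no minimum fold change. They ranged from 22 to 24 when libraries were left out, and from 22 to 25 under the other alternatives run on all 12 lines. Pathway calls higher, 9 in the main analysis, became 15 with median-of-ratios scaling and 87 with no minimum fold change, and ranged from 8 to 10 when libraries were left out. Pathway calls lower, 4 in the main analysis, became 136 with no minimum fold change and ranged from 3 to 5 when libraries were left out. The share of all tested genes called with no minimum fold change is not given here. The counts of 45, 87 and 136 are therefore not read as high or low for these genes. Of 72 fold changes of members, 21 moved by more than the spread between replicates with a pseudocount of 0.1 and 6 with median-of-ratios scaling. With that scaling SEMA3F in isoform 4 went from -0.03 to 0.04 and NRP1 in isoform 2 from -0.06 to 0.04. Replicate numbers were shared by 33 libraries. Over 165 pairs with the same number the median correlation of their deviations was 0.054 (from -0.175 to 0.232), and -0.029 over pairs with different numbers, and 29 of the 33 libraries were closest to their own number. The labels tie no shared source to a number and many pairs were not above 0.1, so the numbers were not used to pair samples in the main analysis, although the closeness is a hint from the data that same-numbered libraries have something in common. With the replicate block, over the 10 lines that carry numbers, members had 20 calls and pathway genes 9 higher and 4 lower, as without it. Depth limits SEMA3A, SEMA3D and NRP2, which were below 1 TPM. The values for differences between isoform 3 and other lines, its ligand sum and the correlations without its replicate 1 were added after seeing the data.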
